A study of Mus musculus with 2 samples.

Results

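The 9 genes described here encode secreted proteins that shape the extracellular matrix: fibronectin (Fn1), tenascin-C (Tnc), the thrombospondins Thbs1, Thbs2 and Thbs4 with their relative cartilage oligomeric matrix protein (Comp), periostin (Postn), osteonectin (Sparc) and lubricin (Prg4). They were taken as a list of names chosen with earlier results of these data known, and all 9 were found among the 28625 gene symbols counted. Expression was measured by droplet single-cell RNA sequencing of mouse tibialis anterior, the muscle along the shin, digested with protease. One library came from muscle injected with 1.2% barium chloride, which kills muscle fibres and starts their regeneration, and taken 24 hours later. Its control was a library of uninjured muscle. Both came from C57B/6 mice aged 12 weeks on standard chow, and the sources used here give neither the number of animals per library nor whether the control muscle was injected with anything.

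Fibronectin is assembled by cells into fibrils that integrins hold on to, and these fibrils are a template on which other matrix is laid down. The other proteins are mostly matricellular: they sit in the matrix less to bear load than to alter how cells attach, how growth factors are released and how collagen is packed. Tenascin-C and fibronectin are known from wounds as parts of an early provisional matrix, periostin and SPARC as collagen-binding partners of that matrix, and the thrombospondins as ligands of CD36, CD47 and integrins. Lubricin coats the gliding surfaces of joints and tendons, and COMP and thrombospondin-4 are abundant in tendon. In muscle the main producers of matrix are fibro-adipogenic progenitors (FAPs), the fibroblasts between fibres, and tenocytes, the fibroblasts of tendon and its junction with muscle.

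The injured library held 4489 barcodes with a median of 7282 unique molecular identifiers (UMIs, each 1 counted transcript), and the uninjured library held 5581 barcodes with a median of 3237. After filtering, 4260 injured and 5136 uninjured cells remained. Levels are UMIs of a gene per 1000000 UMIs of all genes summed over the cells of a class (CPM), and intervals are 95% and cover counting error only. With 1 library per group no difference has a replicate check, so no test of the conditions was made and "higher" and "lower" are statements of size about these libraries. The libraries also differed in sex-linked transcripts: Xist had 0 UMIs in the injured and 16538 in the uninjured library, and Y-linked genes had 4445 and 0, so injury and the sex of the cells cannot be told apart. They shared 33 barcodes.

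Cells were clustered without the 9 genes, and clusters were named from marker lists that do not hold them. Comparison was limited to the 5 classes that had 50 or more cells on both sides. FAP-like cells numbered 419 in the injured and 779 in the uninjured library, and tenocyte-like cells 157 and 442. Endothelial-like cells numbered 450 and 2649, pericyte and smooth muscle-like cells 140 and 307, and monocyte and macrophage-like cells 2455 and 130. Different clusters held most of the FAP-like, tenocyte-like, endothelial-like and macrophage-like cells in the 2 libraries. The names also rested on unequal marker levels. In FAP-like cells the 10 FAP markers summed to 5750 CPM in the injured and 34130 CPM in the uninjured library, and in tenocyte-like cells the 10 tenocyte markers summed to 8098 and 26116 CPM, with no marker at 0 in either. Tenocyte-like cells also carried FAP markers, at 19090 and 40849 CPM. The pericyte and smooth muscle-like cluster carried endothelial markers at 5740 and 14230 CPM, about as high as its own at 5548 and 13504 CPM. How these differences bear on the levels below was not tested.

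All genes with at least 20 UMIs in a class served as background. The median log2 ratio of injured over uninjured over those genes lay below 0 in every class, between -0.29 in FAP-like and -0.13 in pericyte and smooth muscle-like cells. Centring on it raised each ratio by that amount and moved 2 member calls across the 2-fold line: Thbs4 in FAP-like cells, from a log2 ratio of 0.98 to 1.27, and Prg4 in endothelial-like cells, from -1.16 to -0.96.

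RefSeq promoters (GRCm38.p6, 250 bases before to 50 after a start) were matched for 5 of the 9 genes, Postn, Tnc, Sparc, Thbs2 and Thbs4. The 2 printed below belong to the matched genes that stood farthest apart in FAP-like cells, where Postn was lower and Tnc higher after injury. Capitals mark TATAAA, the sequence of the classical TATA box.

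Postn promoter, chr3:54360857-54361156, plus strand: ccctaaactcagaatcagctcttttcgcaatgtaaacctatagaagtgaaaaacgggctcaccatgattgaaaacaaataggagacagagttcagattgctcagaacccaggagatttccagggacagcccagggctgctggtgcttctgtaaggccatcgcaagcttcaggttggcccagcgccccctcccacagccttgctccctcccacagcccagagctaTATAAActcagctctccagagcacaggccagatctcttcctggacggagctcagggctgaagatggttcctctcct
Tnc promoter, chr4:64046966-64047265, minus strand: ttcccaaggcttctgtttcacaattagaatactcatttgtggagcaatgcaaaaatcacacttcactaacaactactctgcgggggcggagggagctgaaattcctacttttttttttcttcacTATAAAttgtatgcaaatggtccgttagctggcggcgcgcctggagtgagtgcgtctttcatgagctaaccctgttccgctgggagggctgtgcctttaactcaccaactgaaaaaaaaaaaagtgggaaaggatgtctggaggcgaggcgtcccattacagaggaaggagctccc

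In Postn the match began 26 bases before the start, and in this Tnc promoter 126 bases before it. The table holds a second promoter for both of these genes. That of Postn, at chr3:54359017-54359316, had no TATAAA, and that of Tnc had the same match 205 bases before its start. On either strand, TATAAA was present in 4 of the 7 promoters of the matched genes (1 of Postn, both of Tnc and that of Thbs2) and in 13.6% of all 32851 promoters. TGANTCA, the letters bound by AP-1 factors, was in 0 of the 7 and in 7.81% of all promoters. These matches describe letters in a window and nothing about a factor.

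The classes that held most of a gene's UMIs differed among the genes, and some genes shared them. In the injured library monocyte and macrophage-like cells held 78.2% of all Fn1 UMIs and 86.4% of all Thbs1 UMIs, against 3.61% and 1.22% in the uninjured library. In uninjured muscle FAP-like cells held 59.5% of Fn1 UMIs and tenocyte-like cells 61.9% of Thbs1 UMIs. Thbs4 and Comp stayed with tenocyte-like cells: these held 94.2% of Thbs4 UMIs in the injured and 95.7% in the uninjured library, and 78.2% and 82.4% of Comp UMIs. Tnc UMIs lay in FAP-like cells for 59.8% in the injured and 3.78% in the uninjured library, and in tenocyte-like cells for 17.8% and 92.2%. FAP-like and tenocyte-like cells held 56.3% and 42.7% of Prg4 UMIs in the injured library, against 12.4% and 73.9% in the uninjured library. These shares follow the number and size of the cells caught as well as the level in each cell, and macrophage-like cells made up far more of the injured library.

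**Figure D1:**
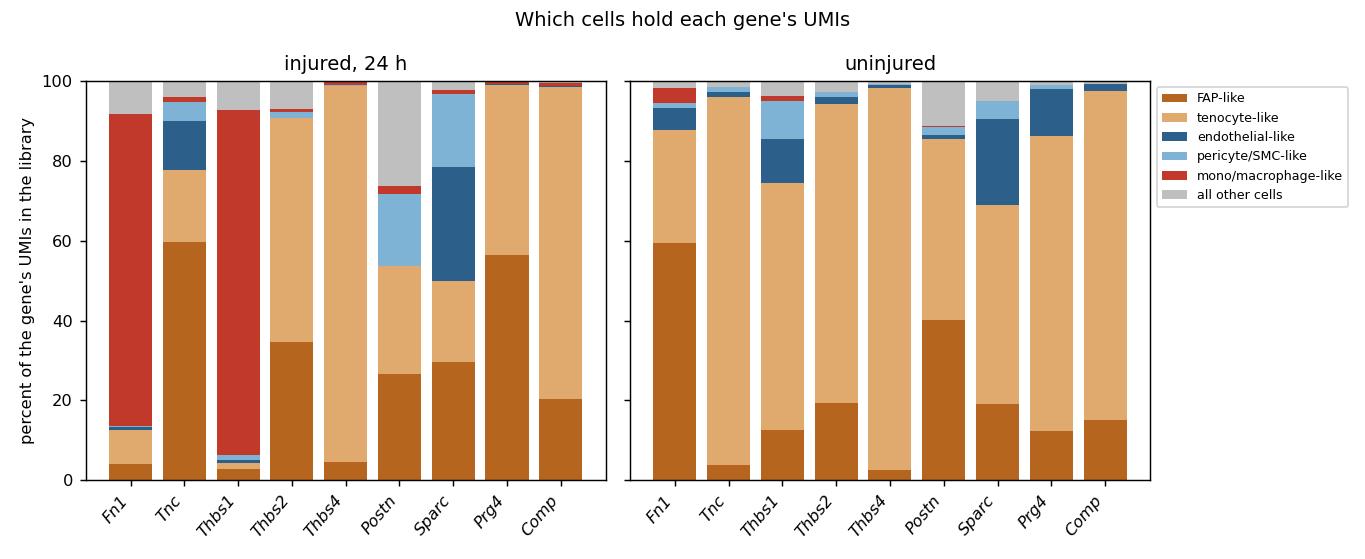
Share of each gene's UMIs (percent, y axis) by the cell class that held them, in the injured library (left) and the uninjured library (right). Fn1 and Thbs1 UMIs lay mostly in monocyte and macrophage-like cells after injury (78.2% and 86.4%), while Thbs4 UMIs lay in tenocyte-like cells in both libraries (94.2% and 95.7%).

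Over all cells of a library, Thbs1, Prg4, Fn1 and Thbs4 had higher CPM in the injured library, by any size. These levels follow which cells were caught as well as the level in each cell. Macrophage-like cells made up 57.6% of the injured and 2.53% of the uninjured cells. No comparison with all genes was made at this level. Thbs1 stood at 705 CPM in the injured and 71.8 CPM in the uninjured library, and Prg4 at 990 and 131 CPM. Fn1 stood at 1151 and 664 CPM and Thbs4 at 931 and 761 CPM. On the other side were Postn at 16.9 and 257 CPM, Comp at 35.7 and 220 CPM, Sparc at 1159 and 6523 CPM, Thbs2 at 18.7 and 79.7 CPM, and Tnc at 41.9 and 48.8 CPM.

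In FAP-like cells the injury pattern divided the genes. Prg4, Tnc and Thbs1 were at least 2-fold higher in the injured library, and Fn1, Postn, Sparc, Comp and Thbs2 at least 2-fold lower, with Thbs4 just within 2-fold. The 3 higher members of 9 stand beside 14.5% of 11505 genes at least 2-fold higher in this class, and the 5 lower members beside 29% at least 2-fold lower. The members' median log2 ratio was -1.32, against -0.29 for all genes.

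Fn1, the fibril-forming scaffold protein, had 255 CPM (243 to 267) in injured FAP-like cells and 2299 CPM (2250 to 2350) in uninjured ones. That is 9.03-fold lower after injury (8.57 to 9.53). The injured level lies within the counting interval of a free RNA estimate, 18.7 to 557 CPM on 2 UMIs. The uninjured value came largely from 1 of 3 uninjured clusters. The cluster led by Smpd3, Mrgprg and Pi16, with 249 cells, stood at 6343 CPM, while the 400 cells led by Myoc stood at 729 CPM and the 118 cells led by Apod and Smoc2 at 328 CPM. All 3 were above the injured cluster, which was led by Cxcl5 and Il1rl1 and stood at 242 CPM over 401 cells. Without the Smpd3 and Pi16 cluster, a setting chosen after the values were seen, the log2 ratio was -1.24 in place of -3.18.

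Postn, which binds fibronectin and collagen and helps crosslink them, had 25.1 CPM (21.4 to 29.2) in injured and 599 CPM (574 to 625) in uninjured FAP-like cells, 23.9-fold lower. It was concentrated in the same uninjured cluster as Fn1, at 1714 CPM there against 124 CPM in the Myoc cluster and 178 CPM in the Apod cluster. Leaving that cluster out gave a log2 ratio of -2.35 in place of -4.58. With every cell thinned to 1800 UMIs, Fn1 was found in 88.5% of uninjured FAP-like cells that had Postn and in 44.9% of those without it.

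Sparc, a collagen chaperone and matricellular protein, had 1905 CPM (1872 to 1939) in injured and 7227 CPM (7139 to 7316) in uninjured FAP-like cells, 3.79-fold lower (3.71 to 3.88). Unlike Fn1 and Postn it was even across the uninjured clusters, between 6187 and 7999 CPM. Comp had 40.3 CPM in injured and 195 CPM in uninjured cells, 4.84-fold lower (4.19 to 5.59). Its uninjured UMIs lay in the Myoc cluster at 377 CPM, against 17.1 CPM in the Smpd3 and Pi16 cluster. The injured Comp UMIs were few and gathered, with 71.1% of 266 in 10 cells, and the log2 ratio of -2.27 became -1.19 when cells were averaged one by one. Thbs2, which restrains new vessels and takes part in collagen fibril assembly, had 36.0 CPM in injured and 89.9 CPM in uninjured cells, 2.50-fold lower.

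Prg4 showed the widest difference among members in FAP-like cells, at 3100 CPM (3058 to 3143) in injured and 95.0 CPM (85.1 to 106) in uninjured cells, 32.7-fold higher (29.3 to 36.5). The uninjured level lies within the counting interval of a free RNA estimate, 0.627 to 138 CPM on 1 UMI. At 1800 UMIs per cell it was detected in 64.0% of injured and 10.0% of uninjured FAP-like cells. The highest uninjured cluster, led by Myoc, stood at 177 CPM. Macrophage-like cells had 12.6 CPM in the injured and 5.52 CPM of Prg4 in the uninjured library, on 3 UMIs. The 10 tenocyte markers summed to 135 CPM in injured and 420 CPM in uninjured FAP-like cells. In tenocyte-like cells themselves they summed to 8098 and 26116 CPM. The part of tenocyte RNA in the Prg4 level was not tested. Tnc had 140 CPM (131 to 149) in injured and 10.7 CPM (7.60 to 14.7) in uninjured FAP-like cells, 13.0-fold higher (9.39 to 18.5), and its 3 uninjured clusters lay between 0.951 and 15.2 CPM. Its injured level lies within the counting interval of a free RNA estimate, 1.95 to 430 CPM on 1 UMI.

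Thbs1, a carrier of signals to CD47 and an activator of latent TGF-beta, had 107 CPM in injured and 52.6 CPM in uninjured FAP-like cells, 2.04-fold higher (1.73 to 2.41). Its level was over 10 times higher in injured macrophage-like cells, and the 10 macrophage markers summed to 211 CPM in injured and 47.5 CPM in uninjured FAP-like cells, where 2 of them were at 0. Their part in the Thbs1 level was not tested. Without the Smpd3 and Pi16 cluster its log2 ratio was 0.67 in place of 1.03, below 2-fold. Thbs4 had 233 CPM in injured and 118 CPM in uninjured FAP-like cells, 1.98-fold higher (1.77 to 2.21). Of its injured UMIs 49.6% lay in 10 cells, and tenocyte-like cells held over 10 times its level in both libraries.

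**Figure D2:**
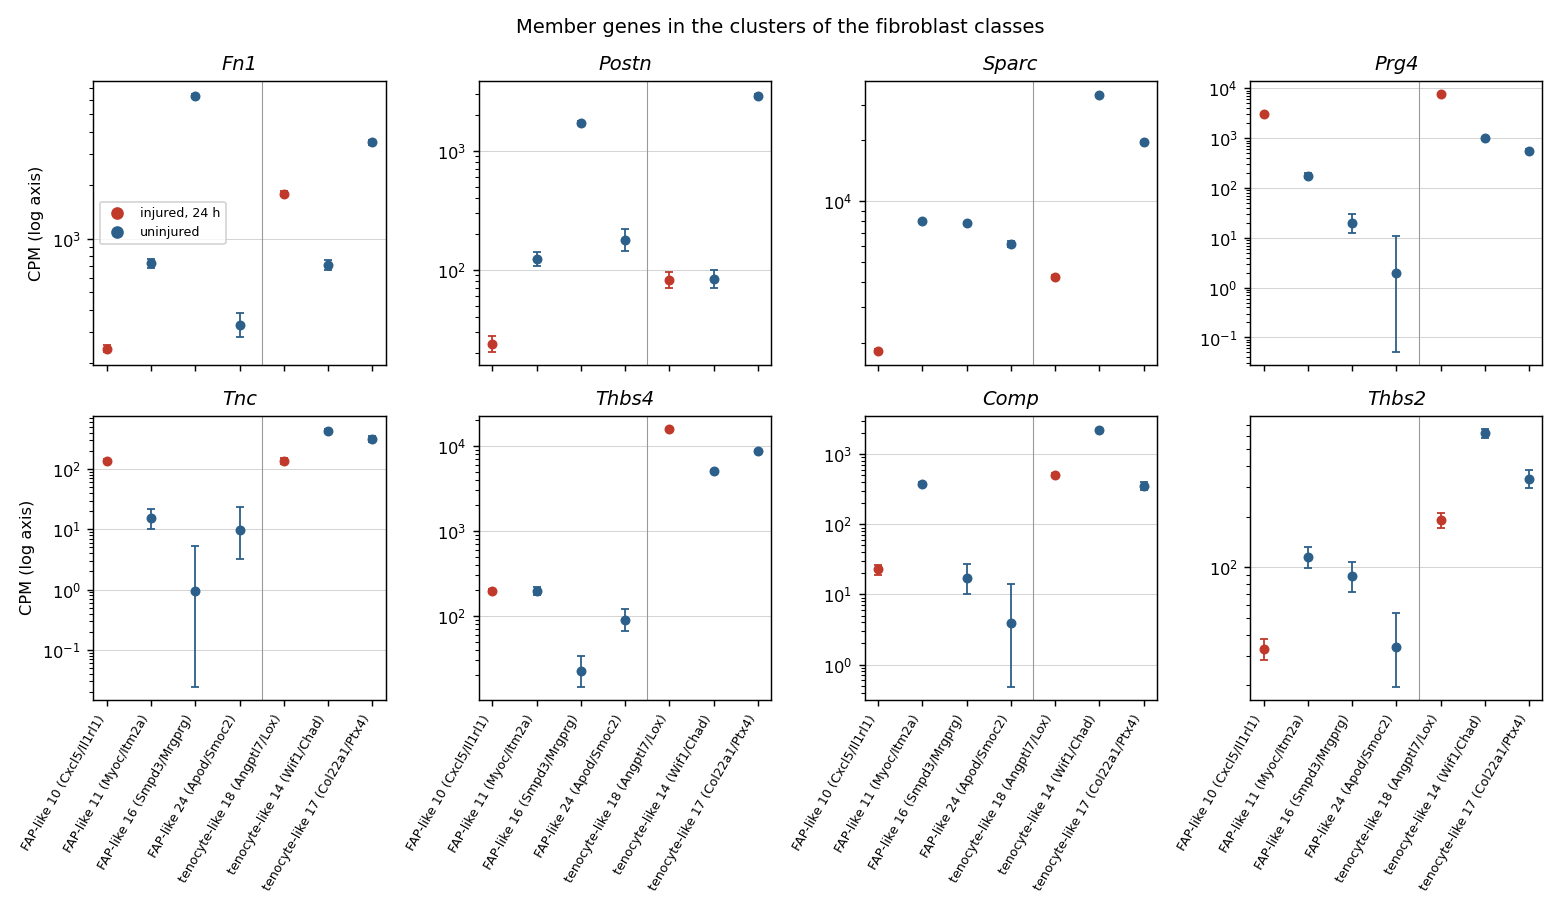
CPM (log axis) of 8 genes in the clusters of FAP-like cells (left of the line) and tenocyte-like cells (right of it), red for clusters in the injured and blue for those in the uninjured library, each named by its number and 2 leading genes, with 95% Poisson intervals that cover counting error only. Fn1 and Postn peaked in the Smpd3-led FAP-like cluster (6343 and 1714 CPM) and the Col22a1-led tenocyte-like cluster (3471 and 2885 CPM), where Comp was low (17.1 and 351 CPM).

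Tenocyte-like cells shared much of that division. Prg4 and Thbs4 were at least 2-fold higher after injury, and Postn, Sparc, Comp, Tnc and Thbs2 at least 2-fold lower, while Fn1 and Thbs1 were within 2-fold. The 2 higher members of 9 stand beside 10% of 9620 genes at least 2-fold higher in this class, and the 5 lower ones beside 21.8% lower. Their median log2 ratio was -1.47, against -0.22 for all genes.

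Thbs4, the thrombospondin of tendon and of the ends of muscle fibres, had 15859 CPM (15687 to 16033) in injured and 6400 CPM (6298 to 6504) in uninjured tenocyte-like cells, 2.48-fold higher (2.43 to 2.53). At equal depth 99.4% of injured and 95.5% of uninjured tenocyte-like cells had it. Prg4 had 7636 CPM (7516 to 7757) in injured and 853 CPM (816 to 891) in uninjured cells, 8.95-fold higher (8.54 to 9.38), and was detected in 91.1% and 48.9% of cells. The injured cluster, led by Angptl7 and Lox, exceeded both uninjured clusters for Thbs4 (8836 and 5135 CPM) and for Prg4 (561 and 1002 CPM).

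Sparc had 4249 CPM (4160 to 4340) in injured and 28674 CPM (28458 to 28892) in uninjured tenocyte-like cells, 6.75-fold lower (6.60 to 6.90). These cells held 8646 of 42591 Sparc UMIs in the injured library and 67126 of 134239 in the uninjured library. Comp, which links collagen fibrils in tendon and cartilage, had 504 CPM in injured and 1596 CPM in uninjured cells, 3.17-fold lower (2.96 to 3.40). Thbs2 had 189 and 524 CPM, 2.77-fold lower (2.47 to 3.11). Tnc, the only gene among the 9 called in opposite directions in the 2 fibroblast classes, had 135 CPM (120 to 152) in injured and 396 CPM (370 to 422) in uninjured tenocyte-like cells, 2.93-fold lower (2.56 to 3.36). Its injured levels in tenocyte-like and FAP-like cells, 135 and 140 CPM, differed by less than their counting intervals.

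Fn1 had 1799 CPM in injured and 1641 CPM in uninjured tenocyte-like cells, 1.10-fold higher (1.05 to 1.15), and Postn had 82.6 and 1026 CPM, 12.4-fold lower (10.6 to 14.6). Both values rested on the make-up of the uninjured class. The uninjured cluster led by Col22a1, a collagen of the junction between muscle and tendon, had 3471 CPM of Fn1 and 2885 CPM of Postn in 166 cells. The uninjured cluster led by Wif1, Chad and Fmod had 714 CPM of Fn1 and 84.5 CPM of Postn in 273 cells, and 2241 CPM of Comp against 351 CPM in the Col22a1 cluster. Only 1 injured cell fell in the Col22a1 cluster. Against the Wif1 cluster and the few other uninjured cells the log2 ratio of Postn was -0.07 in place of -3.64, and that of Fn1 was 1.32 in place of 0.13. This setting was chosen after the values were seen. At equal depth, 9.5% of uninjured tenocyte-like cells had both Postn and Comp, against 18.5% given by the product of the single shares. Thbs1 had 213 CPM in injured and 391 CPM in uninjured tenocyte-like cells, 1.84-fold lower (1.64 to 2.06).

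**Figure D3:**
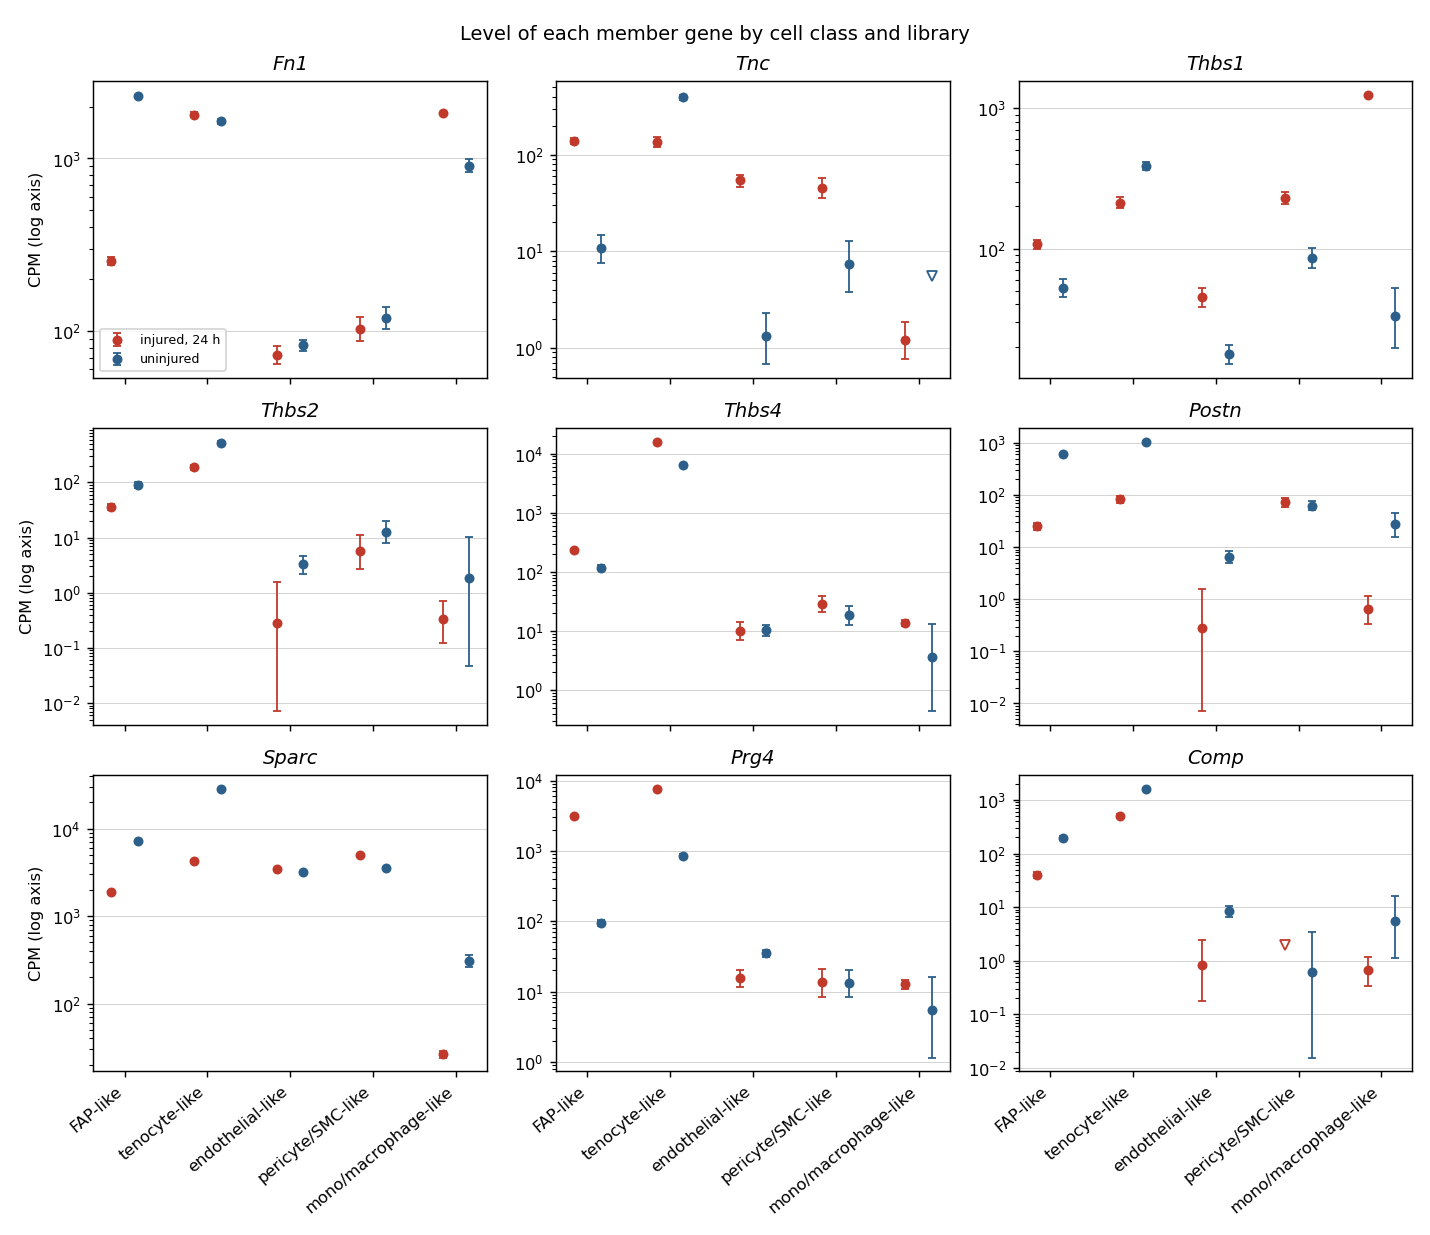
CPM (log axis) of each gene in the 5 compared classes, injured library in red to the left of the uninjured library in blue, with 95% Poisson intervals that cover counting error only. Open triangles stand for 0 UMIs and mark the level that 3 UMIs would give. Prg4 reached 3100 and 7636 CPM in injured FAP-like and tenocyte-like cells, and Thbs1 reached 1236 CPM in injured macrophage-like cells.

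In monocyte and macrophage-like cells Thbs1 was the member that stood out, at 1236 CPM (1220 to 1253) in injured and 33.1 CPM (19.6 to 52.4) in uninjured cells, 37.3-fold higher (23.6 to 63.0). All 4 clusters with at least 50 injured cells had it, between 792 and 1623 CPM, while the 116 cells of the uninjured cluster led by Retnla and Lyz1 had 4.07 CPM. That cluster held 2 of the 18 uninjured Thbs1 UMIs, and the remaining 14 uninjured cells of the class belonged to the cluster led by Hp and Ly6c2. The log2 ratio of 5.22 was 7.38 without the 3 cells highest in the gene in each library and 4.31 with cells named one by one from their own markers. The make-up of the class also differed: the 10 dendritic markers summed to 873 CPM in injured and 23360 CPM in uninjured macrophage-like cells, where 3 of them were at 0, beside 19896 and 15398 CPM of their own markers. What this has to do with the folds was not tested. Fn1 had 1828 CPM (1808 to 1847) in injured and 908 CPM (829 to 991) in uninjured cells, 2.01-fold higher (1.84 to 2.21). That ratio lies at the 2-fold line: its log2 value ran between 0.89 and 2.09 and stayed past 2-fold in 11 of 14 alternatives. Fn1 ranged from 924 CPM in the injured cluster led by Hp and Ly6c2 to 2294 CPM in the one led by Cxcl3 and Arg1. That lowest injured cluster and the uninjured one, at 933 CPM, differed by less than their counting intervals. At 1800 UMIs per cell Fn1 was found in 82.2% of injured and 35.4% of uninjured macrophage-like cells, and Thbs1 in 67.9% and 3.85%.

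By size 4 of the 7 measured members were at least 2-fold higher in macrophage-like cells, beside 8.57% of 10140 genes, and 2 were at least 2-fold lower, beside 23.8%. Their median log2 ratio was 1.01, against -0.17 for all genes. Of these 6, Thbs4, Prg4, Sparc and Postn had over 10 times higher levels in some other class, and Fn1 and Thbs1 did not. Thbs4 had 251 UMIs in injured and 2 in uninjured cells, a ratio of 3.76 (1.03 to 31.2), and Prg4 had 229 and 3, a ratio of 2.29 (0.774 to 11.2). Tnc had 22 UMIs in injured and 0 in uninjured cells, where 3 UMIs would give 5.52 CPM. That is above the injured 1.21 CPM, so no fold is given. Thbs2 and Comp fell under 20 UMIs. Sparc had 26.3 CPM in injured and 309 CPM in uninjured cells, 11.8-fold lower (9.81 to 14.1), and Postn had 0.662 and 27.6 CPM. Both Sparc levels lay below a free RNA estimate of 309 CPM in the injured and 545 CPM in the uninjured library, on 4 and 22 UMIs. Markers of other classes moved the same way as Sparc and Postn: the 10 endothelial markers summed to 103 CPM in injured and 1603 CPM in uninjured macrophage-like cells, and the 10 FAP markers to 47.1 and 475 CPM. None of these was at 0, and their part in the result was not tested.

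Other myeloid cells of the injured library also carried Fn1 and Thbs1. Neutrophil-like cells, 83 in the injured and 0 in the uninjured library, had 1824 CPM of Fn1 and 1212 CPM of Thbs1. They carried macrophage markers at 13569 CPM, beside 13408 CPM of their own, and their levels of both genes lay close to the 1828 and 1236 CPM of macrophage-like cells. The part of macrophage RNA in these levels was not tested. The 438 injured dendritic-like cells had 592 CPM of Fn1 and 280 CPM of Thbs1. They carried macrophage markers at 8458 CPM, beside 25807 CPM of their own. Their Thbs1 level lies within the counting interval of a free RNA estimate, 1.95 to 430 CPM on 1 UMI. The part of macrophage or free RNA in the dendritic-like levels was not tested. In the injured library the Fn1 levels of macrophage-like, neutrophil-like and tenocyte-like cells, at 1828, 1824 and 1799 CPM, could not be ordered beyond their counting intervals. Below them came dendritic-like, FAP-like, pericyte and endothelial-like cells, at 592, 255, 103 and 72.7 CPM. In the uninjured library the order began with FAP-like at 2299, tenocyte-like at 1641, macrophage-like at 908, lymphatic endothelial-like at 412, pericyte at 119 and endothelial-like at 82.5 CPM. The lymphatic, pericyte and endothelial-like levels lay within or below the counting interval of a free RNA estimate, 102 to 423 CPM on 9 UMIs.

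Vessel cells differed most in Tnc. Endothelial-like cells had 54.3 CPM (46.9 to 62.5) in the injured and 1.31 CPM (0.679 to 2.30) in the uninjured library, 41.3-fold higher (23.1 to 81.3). The uninjured level rested on 12 UMIs in 11 of 2649 cells, and the injured one on 192 UMIs in 75 of 450 cells. It lay in the injured cluster led by Pgf and Apln, at 72.1 CPM, while the Plvap and Selp cluster had 0 UMIs of Tnc in either library. In that cluster 3 UMIs would give 5.89 CPM in injured and 2.11 CPM in uninjured cells. Pericyte and smooth muscle-like cells had 45.8 CPM of Tnc (35.8 to 57.8) in the injured and 7.32 CPM (3.78 to 12.8) in the uninjured library, 6.26-fold higher (3.37 to 12.7). Of the injured UMIs there, 69.0% of 71 lay in 10 cells. The injured Tnc and Thbs1 levels of both vessel classes lie within the counting interval of a free RNA estimate, 1.95 to 430 CPM on 1 UMI.

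Thbs1 had 230 CPM in injured and 86.0 CPM in uninjured pericyte and smooth muscle-like cells, 2.67-fold higher (2.19 to 3.27). In endothelial-like cells it was 2.55-fold higher (2.03 to 3.19), on 159 injured and 161 uninjured UMIs, and over 10 times below macrophage-like or tenocyte-like cells. The endothelial level depended on the vessel type: uninjured cells led by Plvap and Selp, genes of venules, had 83.7 CPM, and the cells led by Rbp7 and Hey1 had 1.87 CPM. Fn1 ran the other way, with 13.4 CPM in the Plvap cluster, 178 CPM in the Rbp7 cluster and 533 CPM in the cluster led by Gkn3 and Cytl1, which also had Gja5, a gene of arteries, among its leading genes. Sparc, a product of vessel walls, had 3448 CPM in injured and 3163 CPM in uninjured endothelial-like cells, 1.09-fold higher (1.07 to 1.11). In pericyte and smooth muscle-like cells it had 4997 and 3587 CPM, 1.39-fold higher (1.35 to 1.44). The large fibroblast differences in Sparc thus had no counterpart of that size in vessel cells, a difference between classes that was not tested.

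Of the 9 measured members 2 were at least 2-fold higher in endothelial-like cells, beside 10.6% of 11231 genes, and 4 at least 2-fold lower, beside 20.4%. Their median log2 ratio was -0.18, against -0.21 for all genes. The 4 lower ones, Thbs2, Postn, Prg4 and Comp, had between 1 and 55 injured UMIs and were over 10 times higher in another class. In pericyte and smooth muscle-like cells 2 of 8 measured members were higher, beside 8.72% of 9578 genes, and 1 was lower, beside 16.3%. The median there was 0.34, against -0.13 for all genes. The lower one was Thbs2, with 9 injured and 21 uninjured UMIs, 2.21-fold lower with an interval of 0.968 to 5.47 that includes equal levels. Intervals that include equal levels also held for Thbs4, Prg4, Postn and Fn1 in this class. Thbs4 had 29.0 CPM in injured and 18.9 CPM in uninjured cells, a ratio of 1.54 (0.951 to 2.51), and Prg4 had 13.6 and 13.4 CPM, a ratio of 1.01 (0.528 to 1.92). Postn, at 72.3 CPM in injured and 62.8 CPM in uninjured cells, was 1.15-fold higher (0.872 to 1.52), and Fn1, at 103 and 119 CPM, was 1.16-fold lower (0.935 to 1.44). Comp had 0 and 1 UMIs there and was not measured.

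**Figure D4:**
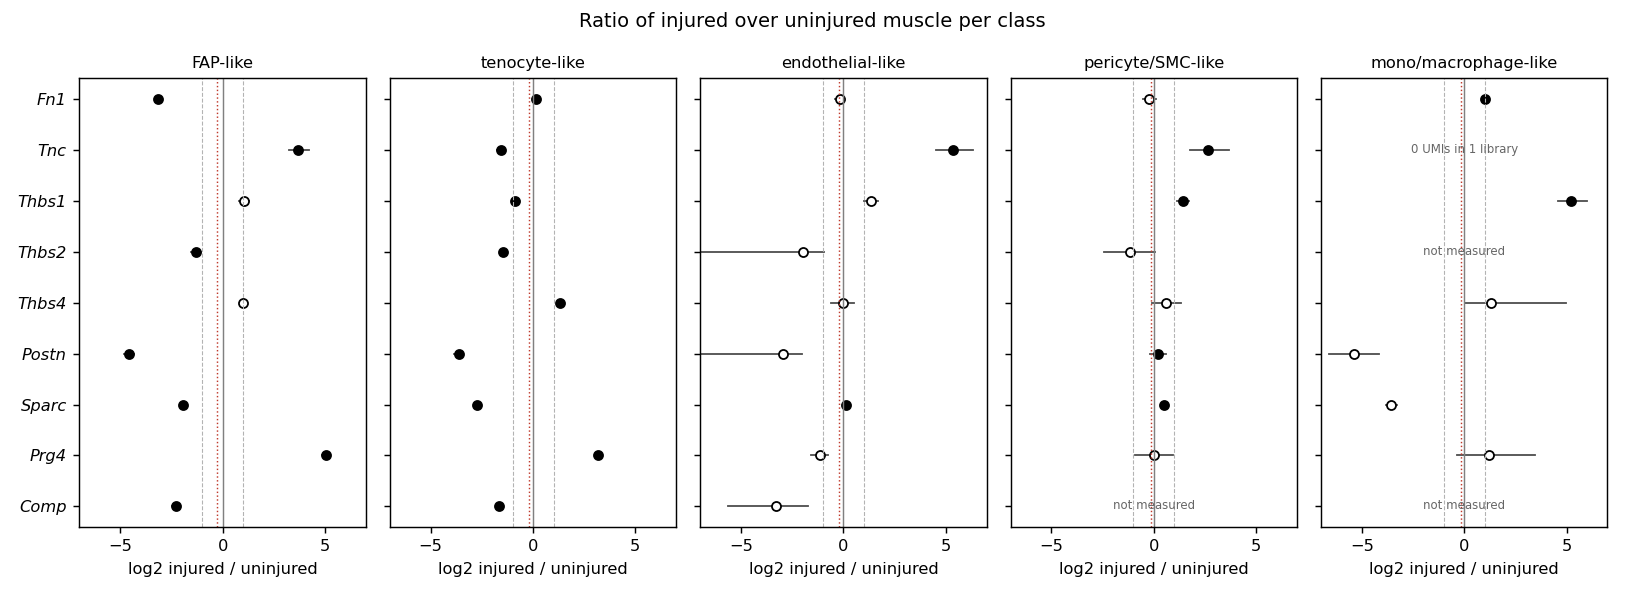
Log2 ratio of injured over uninjured CPM (x axis) for each gene (y axis) in the 5 classes, with 95% conditional binomial intervals that cover counting error only, dashed lines at 2-fold and a dotted line at the median of all genes. Open circles are genes whose level in some other class of that library was over 10 times higher. In points a count under 3 was raised to 3, and lines that reach the frame go on beyond it. Prg4 lies at 5.03 in FAP-like and 3.16 in tenocyte-like cells, Postn at -4.58 and -3.64, and Thbs1 at 5.22 in macrophage-like cells.

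Some classes could not be compared, yet placed the genes. Glial-like cells, 48 in the injured and 252 in the uninjured library, held 18.3% of injured and 10.3% of uninjured Postn UMIs. Within them Postn separated the uninjured cluster led by Col20a1 and Bche, at 1537 CPM, from a second uninjured cluster of 107 cells, at 28.1 CPM, and Sparc was lower in the first, at 2435 against 6861 CPM. Uninjured satellite cell-like cells, the stem cells of muscle fibres, had 833 CPM of Sparc and 26.4 CPM of Fn1. Uninjured muscle fibre-like barcodes had 2820 CPM of Sparc and 47.8 CPM of Fn1. They also carried endothelial markers at 26757 CPM, against 29900 CPM in endothelial-like cells, whose Sparc level was 3163 CPM, and beside 40168 CPM of fibre markers. The part of endothelial RNA in the Sparc level was not tested. Lymphatic endothelial-like cells had 199 CPM of Sparc and 412 CPM of Fn1. That Sparc level lay below the counting interval of an uninjured free RNA estimate, 341 to 824 CPM. The Fn1 levels of satellite cell-like, fibre-like and lymphatic cells lay below or within that of free Fn1, 102 to 423 CPM. The part of free RNA in them was not tested.

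A rough level of free RNA came from the 64 injured and 178 uninjured barcodes with fewer than 200 genes, nearly all of whose UMIs were haemoglobin. Among their other UMIs Sparc stood at 309 CPM in the injured and 545 CPM in the uninjured library, on 4 and 22 UMIs. Fn1 stood at 154 and 223 CPM on 2 and 9 UMIs, and Thbs4 at 309 and 74.3 CPM on 4 and 3. Prg4 stood at 154 CPM on 2 UMIs and 24.8 CPM on 1. Tnc and Thbs1 each stood at 77.1 CPM (1.95 to 430) in the injured library, on 1 UMI. These counts are too few to set a threshold. The class levels of Fn1, Thbs4 and Prg4 in endothelial-like and pericyte cells lay below these values or within their counting intervals. The same held for the injured levels of Tnc and Thbs1 in those classes. Among fibroblasts it held for injured FAP-like Fn1, Tnc, Thbs1 and Thbs4 (255, 140, 107 and 233 CPM). Uninjured FAP-like Thbs4 and Prg4 (118 and 95.0 CPM) and injured tenocyte-like Tnc and Thbs1 (135 and 213 CPM), among others, also lay within those intervals. Free Postn, Comp and Thbs2 had 0 UMIs each in the injured library, with intervals up to 285 CPM. Injured FAP-like Postn, Comp and Thbs2, at 25.1, 40.3 and 36.0 CPM, lay below that bound. Free Postn stood at 74.3 CPM (15.3 to 217) on 3 UMIs in the uninjured library. Uninjured macrophage-like and pericyte Postn, at 27.6 and 62.8 CPM, lay within that interval. Macrophage-like Sparc, at 26.3 CPM in the injured and 309 CPM in the uninjured library, lay below the free Sparc intervals, 84.1 to 790 and 341 to 824 CPM. In the injured library macrophage-like cells had 1.21 CPM of Tnc, against 54.3 CPM in endothelial-like and 45.8 CPM in pericyte and smooth muscle-like cells, whereas Thbs1 was highest in macrophage-like cells. The part of free RNA in these levels was not tested.

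The genes most like each member were sought over 17 class levels, 7 injured and 10 uninjured, as Pearson's r of log2(CPM + 10) among 10665 genes. The points share libraries and depth, so r is a description. Prg4 was most like Ltbp2 (0.988), Crabp1 and Ccbe1. Thbs4 was most like Epyc (0.979), Angptl7 and Lox, and Thbs2 most like Col12a1 (0.968), Cntfr and Plekhf1. Postn was most like Reck (0.949), Ptpn13 and Pdzrn3, Comp like Tmem45a (0.947), Fbln1 and Cilp, and Sparc like Serpinh1 (0.941), Pkd2 and Mxra7. The weakest best matches were those of Fn1 with Tgfbi (0.917), Pqlc3 and Rab3il1, of Tnc with Etv4 (0.892), Rhod and Slc39a13, and of Thbs1 with Galns (0.886), Fam107b and Sec61g. Among the members themselves, the closest pairs were Thbs4 with Prg4 (0.898), Thbs2 with Thbs4 (0.891) and Thbs4 with Comp (0.857).

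Receptors and partners were read from 6 lists. Their counts stand beside the shares of all genes at least 2-fold higher and lower in a class, which were 14.5% and 29% in FAP-like, 10% and 21.8% in tenocyte-like, 8.57% and 23.8% in macrophage-like, 10.6% and 20.4% in endothelial-like, and 8.72% and 16.3% in pericyte and smooth muscle-like cells. Several counts lie near those shares. The measured genes include some with over 10 times higher levels in another class. In endothelial-like cells these were 7 of 10 relatives of the members, 6 of 12 assembly genes and 4 of 11 proteases. In macrophage-like cells they were 3 of 5 relatives and 6 of 9 assembly genes. Per list they numbered between 1 and 3 in FAP-like and between 0 and 2 in tenocyte-like cells. The part of other classes' RNA in the counts was not tested. Of 13 fibronectin receptor genes, 1 was at least 2-fold higher and 5 lower of 11 measured in FAP-like cells, 0 and 5 of 11 in tenocyte-like, 3 and 3 of 10 in macrophage-like, 2 and 1 of 10 in endothelial-like, and 1 and 2 of 11 in pericyte and smooth muscle-like cells. Itga5, the alpha chain of the classical fibronectin receptor, was the higher one in FAP-like cells, at 77.6 CPM in injured and 24.3 CPM in uninjured cells. Itgb3, an integrin chain that also binds thrombospondin, had 21.8 CPM in injured and 1.64 CPM in uninjured endothelial-like cells, 13.2-fold higher (7.56 to 24.8). Itgb5 was 6.37-fold higher in macrophage-like cells on 5 uninjured UMIs, 4.07-fold lower in FAP-like cells and 5.77-fold lower in endothelial-like cells.

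Of 11 receptor genes for thrombospondins, SPARC and lubricin, 1 was higher and 5 lower of 10 measured in FAP-like cells, 1 and 3 of 8 in tenocyte-like, 2 and 0 of 9 in macrophage-like, 3 and 2 of 9 in endothelial-like, and 2 and 1 of 8 in pericyte and smooth muscle-like cells. Cd44, which binds lubricin and hyaluronan, was the higher gene in FAP-like cells, at 284 CPM in injured and 60.2 CPM in uninjured cells. Tlr2, another receptor reported for lubricin, had 264 CPM in injured and 60.7 CPM in uninjured macrophage-like cells. Cd36, the thrombospondin receptor of small vessels, had 274 CPM in injured and 1755 CPM in uninjured endothelial-like cells, 6.40-fold lower (6.00 to 6.83). Cd47 was 2.11-fold lower there.

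Of 16 relatives of the members, 1 was higher and 9 lower of 12 measured in FAP-like cells, 0 and 6 of 11 in tenocyte-like, 2 and 3 of 5 in macrophage-like, 3 and 4 of 10 in endothelial-like, and 2 and 2 of 7 in pericyte and smooth muscle-like cells. Sparcl1, the closest relative of Sparc, was 15.4-fold lower in tenocyte-like, 8.92-fold lower in endothelial-like and 5.02-fold lower in pericyte and smooth muscle-like cells. Spp1, osteopontin, had 3070 CPM in injured and 22.1 CPM in uninjured macrophage-like cells, on 12 uninjured UMIs, and Tgfbi, the nearest relative of Postn, had 1417 and 626 CPM. Fndc1, a protein with fibronectin type repeats, was 11.2-fold lower in FAP-like cells.

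Of 14 genes of fibronectin assembly and crosslinking, 2 were higher and 4 lower of 14 measured in FAP-like cells, 1 and 4 of 14 in tenocyte-like, 1 and 3 of 9 in macrophage-like, 1 and 5 of 12 in endothelial-like, and 3 and 1 of 12 in pericyte and smooth muscle-like cells. Lox, which crosslinks collagen, had 2189 CPM in injured and 557 CPM in uninjured tenocyte-like cells, 3.93-fold higher (3.70 to 4.19), while Loxl2 was 5.99-fold lower. Tgm2, a transglutaminase that crosslinks fibronectin, had 136 and 16.6 CPM in macrophage-like cells, on 9 uninjured UMIs.

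Of 15 genes of TGF-beta ligands and their activation, 3 were higher and 7 lower of 15 measured in FAP-like cells, 2 and 6 of 13 in tenocyte-like, 2 and 3 of 9 in macrophage-like, 2 and 5 of 14 in endothelial-like, and 1 and 4 of 13 in pericyte and smooth muscle-like cells. Ltbp4, which holds latent TGF-beta in the matrix, was 7.86-fold lower in FAP-like and 4.06-fold lower in tenocyte-like cells.

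Of 15 proteases known to cut the members, 3 were higher and 5 lower of 12 measured in FAP-like cells, 3 and 2 of 10 in tenocyte-like, 2 and 2 of 8 in macrophage-like, 6 and 2 of 11 in endothelial-like, and 5 and 0 of 8 in pericyte and smooth muscle-like cells. Mmp3, stromelysin, had 530 CPM in injured and 8.97 CPM in uninjured tenocyte-like cells, 59.1-fold higher (38.5 to 95.9), and was 2.43-fold higher in FAP-like cells. Mmp2, the gelatinase of fibroblasts, was 3.39-fold lower in tenocyte-like and 5.18-fold lower in FAP-like cells. Mmp14, a protease anchored in the cell membrane, was 13.9-fold higher in endothelial-like and 2.41-fold lower in tenocyte-like cells.

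On mm10 the GENCODE annotation places Fn1 at chr1:71585520-71653200 and Prg4 at chr1:150449412-150466165, both on the minus strand, and Thbs1 at chr2:118111876-118127133 on the plus strand. Postn, at chr3:54361109-54391037, and Comp, at chr8:70373558-70382066, also lie on the plus strand. Tnc at chr4:63959785-64047015, Sparc at chr11:55394500-55423183, Thbs4 at chr13:92751590-92794818 and Thbs2 at chr17:14665500-14694235 lie on the minus strand. Of the 9 genes, 4 overlap a gene on the opposite strand. Tpr, which overlaps Prg4, had 10434 UMIs over the cells of both libraries, while Apol7d at Fn1 had 49 and Gm29233 at Thbs1 had 2, and the partner of Tnc was not counted. The sources used here do not say whether counting used strand.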

How the data were processed

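The 2 libraries, 1 per group, were made with 10x Single Cell 3' v2 chemistry, per the labels' protocols, and groups were taken from the sample titles. Per the submitters' processing notes the authors used Cell Ranger 2.1.1 and the mm10 build. What they deposited are whole-number UMI counts for every gene in every barcode, not normalized. The sources used here do not give the annotation release or how barcodes were chosen. The injured library held 39014762 UMIs, with at least 3333 in a barcode, and the uninjured library 22994502, with at least 1843, so small cells may be missing more often from the injured one.

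Counts of rows sharing a symbol were added. Barcodes with fewer than 200 genes (64 injured, 178 uninjured) or with mitochondrial genes above 20% of UMIs (4 and 18) were dropped. Scrublet with its own threshold found only 1 doublet per library (0.0223% of injured and 0.0179% of uninjured barcodes), which was not usable. The highest scores were left out instead, at an assumed 0.8% per 1000 barcodes (161 and 249), and doublets may remain. Counts were scaled to 10000 per cell and logged, and 2000 variable genes without the 9 members, 30 components, 15 neighbours and Leiden resolution 1 gave 31 clusters, with no integration. Names came from 16 marker lists: a marker counted as present at 20% of cells and 2 times the median cluster, and a name needed at least 3. A cluster in which another lineage reached 70% of the own marker share was set aside unless 3 own markers and none of the other lineages stood among its 10 leading genes, with FAPs and tenocytes taken as one lineage. That exception was made after the cluster table was seen. Without the exception for leading genes no pericyte, muscle fibre-like or erythroid-like class would remain. The tenocyte-like class rests instead on FAPs and tenocytes being taken as one lineage, without which it could not be compared.

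UMIs were summed per class and library. CPM have exact Poisson, shares exact Clopper-Pearson and ratios exact conditional binomial intervals, all at 95% and for counting error only. In log2 ratios the lower count was raised to 3, never past equal rates, and genes needed 20 UMIs over both libraries. The ratio calculation was tested on simulated data. No p-value was made from cells. The members and all lists were chosen with earlier results of these data known. Beside the members, the text names, from each list and class, genes among the 2 most changed in each direction at 2-fold whose level elsewhere was not over 10 times higher, and the 3 genes most like each member with at least 200 UMIs. Not every gene this rule gives is reported here. Alternatives covered doublets, clustering, naming, thinning to 1800 UMIs, filters, scaling and high cells. Protein sequences were not analysed here. The software was scanpy 1.11.5 with leidenalg 0.10.2 for clustering, scipy 1.17.1 for intervals, numpy 2.4.6 and matplotlib 3.10.9, under Python 3.11.15.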

Additional observations from a re-analysis of the deposited data

Results flagged for a closer look

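Fn1 was called in opposite directions in different classes of the same libraries, with a log2 ratio of injured over uninjured of 1.01 in monocyte and macrophage-like and -3.18 in FAP-like cells. Tnc was likewise called higher in endothelial-like (5.37), FAP-like (3.70) and pericyte and smooth muscle-like cells (2.65) and lower in tenocyte-like cells (-1.55). With 1 library per group these differences between classes were not tested.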

How the results depend on the processing

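The counts of members called in FAP-like and tenocyte-like cells stayed within 1.5 times under every alternative run, but the members called could change. Without the Col22a1 cluster tenocyte-like Postn lost its call (log2 ratio -0.07) and Fn1 gained one (1.32). In FAP-like cells Thbs1 stayed past 2-fold, and Thbs4 within it, in 10 of 15 alternatives each. Of 615 values of single members under an alternative 482 moved by less than their counting interval. Among members called at 2-fold 1 value changed sign, Thbs4 in macrophage-like cells, whose log2 ratio of 1.33 was -1.37 with no barcodes left out by doublet score and between 0 and 1.91 under the other alternatives. Another 11 values changed sign in members within 2-fold, Fn1 and Thbs4 in endothelial-like and Fn1, Postn and Prg4 in pericyte and smooth muscle-like cells. Counts in the other 3 classes moved in 21 of 88 alternatives, and the cause was not tested unless the setting itself removes members or cells. In macrophage-like cells the 4 higher members were 2 with no doublet removal, 2 with cells named one by one from their own markers, 2 with thinned cells, 2 with members over 10 times higher in another class left out, and 1 with only cells above the injured UMI minimum. The 2 lower members there were 4 with no doublet removal, 4 with members of at least 1 UMI, 1 with own markers, 1 with thinned cells and 0 without members higher in another class. In endothelial-like cells the 2 higher members were 1 above the UMI minimum and 1 without members higher in another class, and the 4 lower ones were 1 with thinned cells, 2 above the UMI minimum and 0 without members higher in another class. In pericyte and smooth muscle-like cells the 2 higher members were 4 with own markers, and the 1 lower member was 0 with own markers, with the mean of per-cell values, with thinned cells, above the UMI minimum and without members higher in another class. Single-member values in macrophage-like cells are limited by the 130 uninjured cells. No paired analysis was possible because each group has 1 library.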
